A study of Homo sapiens with 14 samples.

Results

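VRK1, PRKCB, PPP1R1A, KDSR, BCL11B, MYBL2, UGT3A2, CAV1 and JAK1 are 9 genes that have been described as activated by EWSR1::FLI1, the fusion oncoprotein of Ewing sarcoma. They were taken as a list from earlier knowledge of the fusion, and they are 9 of the 19970 protein-coding genes on the autosomes and X. Earlier results of these data were known when the list was chosen. For each gene, peaks of FLI1 and of 3 histone marks were examined over the gene body with 10, 50 and 200 kb either side, together with the GGAA repeats at FLI1 summits and the distance to the nearest H3K27ac. The study asked which chromatin states the binding sites of the fusion lie in, and used CUT&RUN, in which a nuclease tethered to an antibody releases the DNA around the antibody's target for sequencing. All 14 libraries came from TC-32, 1 established Ewing sarcoma line, labelled WT and untreated. The labels sort them into sets A and B without saying what separates the 2. Each set has 2 replicates of FLI1 and 2 of the IgG control. Set A adds 2 replicates of H3K27ac, and set B adds 2 of H3K9me3 and 2 of H3K27me3. Nothing in the labels says whether replicates were separate cultures, so the spread between them may be technical. No library without the fusion and no RNA measurement was used here, and an antibody to FLI1 would also bind any wild-type FLI1 in the cells.

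EWSR1::FLI1 joins the amino-terminal, low-complexity part of EWSR1 to the ETS DNA-binding domain of FLI1. It binds single ETS sites around a GGAA core, as wild-type ETS factors do, and it also binds microsatellites made of consecutive GGAA units, where it is known to create enhancers in Ewing sarcoma cells. H3K27ac marks active enhancers and promoters, H3K27me3 is the mark of Polycomb repression, and H3K9me3 marks heterochromatin.

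The results turn on GGAA repeats near these genes, and the stretches below are shown because FLI1 was found at some of them in every library and at others of the same length in none. All are the hg38 reference sequence with 30 bases either side of the longest run, 5′ to 3′, on the strand that reads GGAA, with runs of at least 4 consecutive units in capitals. The length of these repeats in TC-32 itself was not measured. A repeat with FLI1 at it in a library had a FLI1 region over it or a FLI1 summit within 250 bp. The first 8 stretches had FLI1 at them in all 4 libraries: chr14:97066009-97066140 (minus strand, beyond the end of VRK1), chr16:24021266-24021385 (minus, PRKCB intron), chr1:64913629-64913732 (plus, JAK1 intron), chr12:54624940-54625055 (minus, upstream of PPP1R1A), chr18:63377509-63377632 (minus, upstream of KDSR), chr5:36068909-36069012 (plus, UGT3A2 intron), chr7:116523057-116523180 (plus, upstream of CAV1) and chr14:99130536-99130639 (plus, beyond the end of BCL11B). The last pair, chr14:96769114-96769217 (minus, upstream of VRK1) and chr16:24094781-24094884 (plus, PRKCB intron), had no FLI1 region over them and no FLI1 summit within 1000 bp in any library.
VRK1 downstream, FLI1 in all libraries: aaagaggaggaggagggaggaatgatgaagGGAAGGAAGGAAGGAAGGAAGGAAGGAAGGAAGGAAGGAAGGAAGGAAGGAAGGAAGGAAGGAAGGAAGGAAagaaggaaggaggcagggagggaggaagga
PRKCB intron, FLI1 in all libraries: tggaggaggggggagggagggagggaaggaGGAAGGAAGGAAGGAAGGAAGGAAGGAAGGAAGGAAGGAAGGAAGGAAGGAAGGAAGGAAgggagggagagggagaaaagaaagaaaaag
JAK1 intron, FLI1 in all libraries: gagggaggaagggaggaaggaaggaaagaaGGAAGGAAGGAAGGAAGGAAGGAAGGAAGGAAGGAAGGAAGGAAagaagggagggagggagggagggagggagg
PPP1R1A upstream, FLI1 in all libraries: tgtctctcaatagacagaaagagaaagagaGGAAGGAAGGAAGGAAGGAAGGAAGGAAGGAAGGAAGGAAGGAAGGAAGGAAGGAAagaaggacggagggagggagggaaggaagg
KDSR upstream, FLI1 in all libraries: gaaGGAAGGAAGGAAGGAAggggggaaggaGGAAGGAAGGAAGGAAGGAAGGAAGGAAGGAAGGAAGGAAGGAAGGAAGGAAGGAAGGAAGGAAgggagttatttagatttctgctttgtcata
UGT3A2 intron, FLI1 in all libraries: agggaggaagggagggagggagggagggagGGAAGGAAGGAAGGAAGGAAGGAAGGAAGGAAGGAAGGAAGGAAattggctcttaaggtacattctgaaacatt
CAV1 upstream, FLI1 in all libraries: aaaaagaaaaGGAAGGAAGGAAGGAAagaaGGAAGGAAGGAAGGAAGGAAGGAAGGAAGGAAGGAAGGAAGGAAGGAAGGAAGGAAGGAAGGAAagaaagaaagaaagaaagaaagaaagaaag
BCL11B downstream, FLI1 in all libraries: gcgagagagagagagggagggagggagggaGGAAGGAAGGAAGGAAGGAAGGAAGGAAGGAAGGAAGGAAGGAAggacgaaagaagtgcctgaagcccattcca
VRK1 upstream, FLI1 in no library: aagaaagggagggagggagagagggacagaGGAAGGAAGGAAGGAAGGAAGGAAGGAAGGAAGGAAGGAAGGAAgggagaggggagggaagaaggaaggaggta
PRKCB intron, FLI1 in no library: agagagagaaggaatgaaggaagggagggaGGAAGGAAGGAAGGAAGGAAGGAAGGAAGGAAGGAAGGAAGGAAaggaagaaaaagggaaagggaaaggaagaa
The longest runs were 18 units for VRK1 downstream, 16 for CAV1 and KDSR, 15 for PRKCB, 14 for PPP1R1A, and 11 for JAK1, UGT3A2 and BCL11B. Both stretches without FLI1 also hold 11 units, so at this length the run of units alone did not separate the repeats with FLI1 from those without. A repeat of 16 units upstream of PRKCB, chr16:23737535-23737630 (not shown), also had FLI1 at it in no library. Its nearest summit was 389 bp away, in set A replicate 2. Over the whole genome, 483 repeats had a longest run of 11 units, of which 18.8% had FLI1 at them in all 4 libraries and 64.0% in none. FLI1 was weak in set B at the 15-unit PRKCB stretch shown. Set B replicate 1 had a summit 173 bp away but no region over the repeat, and replicate 2 a fold of 4.49 (percentile 5.70). The folds in set A were 17.0 and 11.5.

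FLI1 regions were present in all 4 libraries at 6 of the 9 genes when the gene body and 10 kb either side were searched, against 53.1% of all protein-coding genes. These were PRKCB, KDSR, BCL11B, UGT3A2, CAV1 and JAK1. PPP1R1A joined them at 50 kb, where 70.0% of all genes had such a region, and VRK1 and MYBL2 at 200 kb, where 88.7% did. Presence alone was thus not far from the background at any of the windows. At 10 kb, 17 of a list of 18 other activated genes had such a region, and 3 of a list of 10 genes repressed by the fusion. The 6 genes with a FLI1 region in all 4 libraries within 10 kb ranked high among all genes in the number of regions for their length. That rank follows in part from how the 6 were picked, and ranks among only the genes with such a region were not computed. A FLI1 region here is a stretch covered by the peaks of at least 1 FLI1 library after peaks that overlap are joined. CAV1 held 42.7 regions per 100 kb, which placed it at percentile 99.9 among all protein-coding genes. PRKCB, KDSR, BCL11B, UGT3A2 and JAK1 held between 13.8 and 15.1 per 100 kb, at percentiles 94.6 to 95.7. VRK1 with 2.25 and MYBL2 with 2.88 were near the median gene, which had 2.79, and PPP1R1A had none.

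Regions of the 9 genes were shared by all 4 libraries about as often as FLI1 regions in general. The 10 kb windows held 157 regions, of which 50 (31.8%) were in all 4 libraries and 58 in 1 library only. Over all 55109 FLI1 regions, 29.3% were in all 4. PRKCB held 57 regions, with 18 in all 4 libraries, JAK1 35 with 13, and CAV1 24 with 9. BCL11B had 18 with 4, KDSR 9 with 4, and UGT3A2 8 with 2. A further 16 regions were in both libraries of set A and none of set B, and 10 were in both of set B and none of set A. A gene or site missing from a list was not detected there, which does not show that it was unbound.

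**Figure D1:**
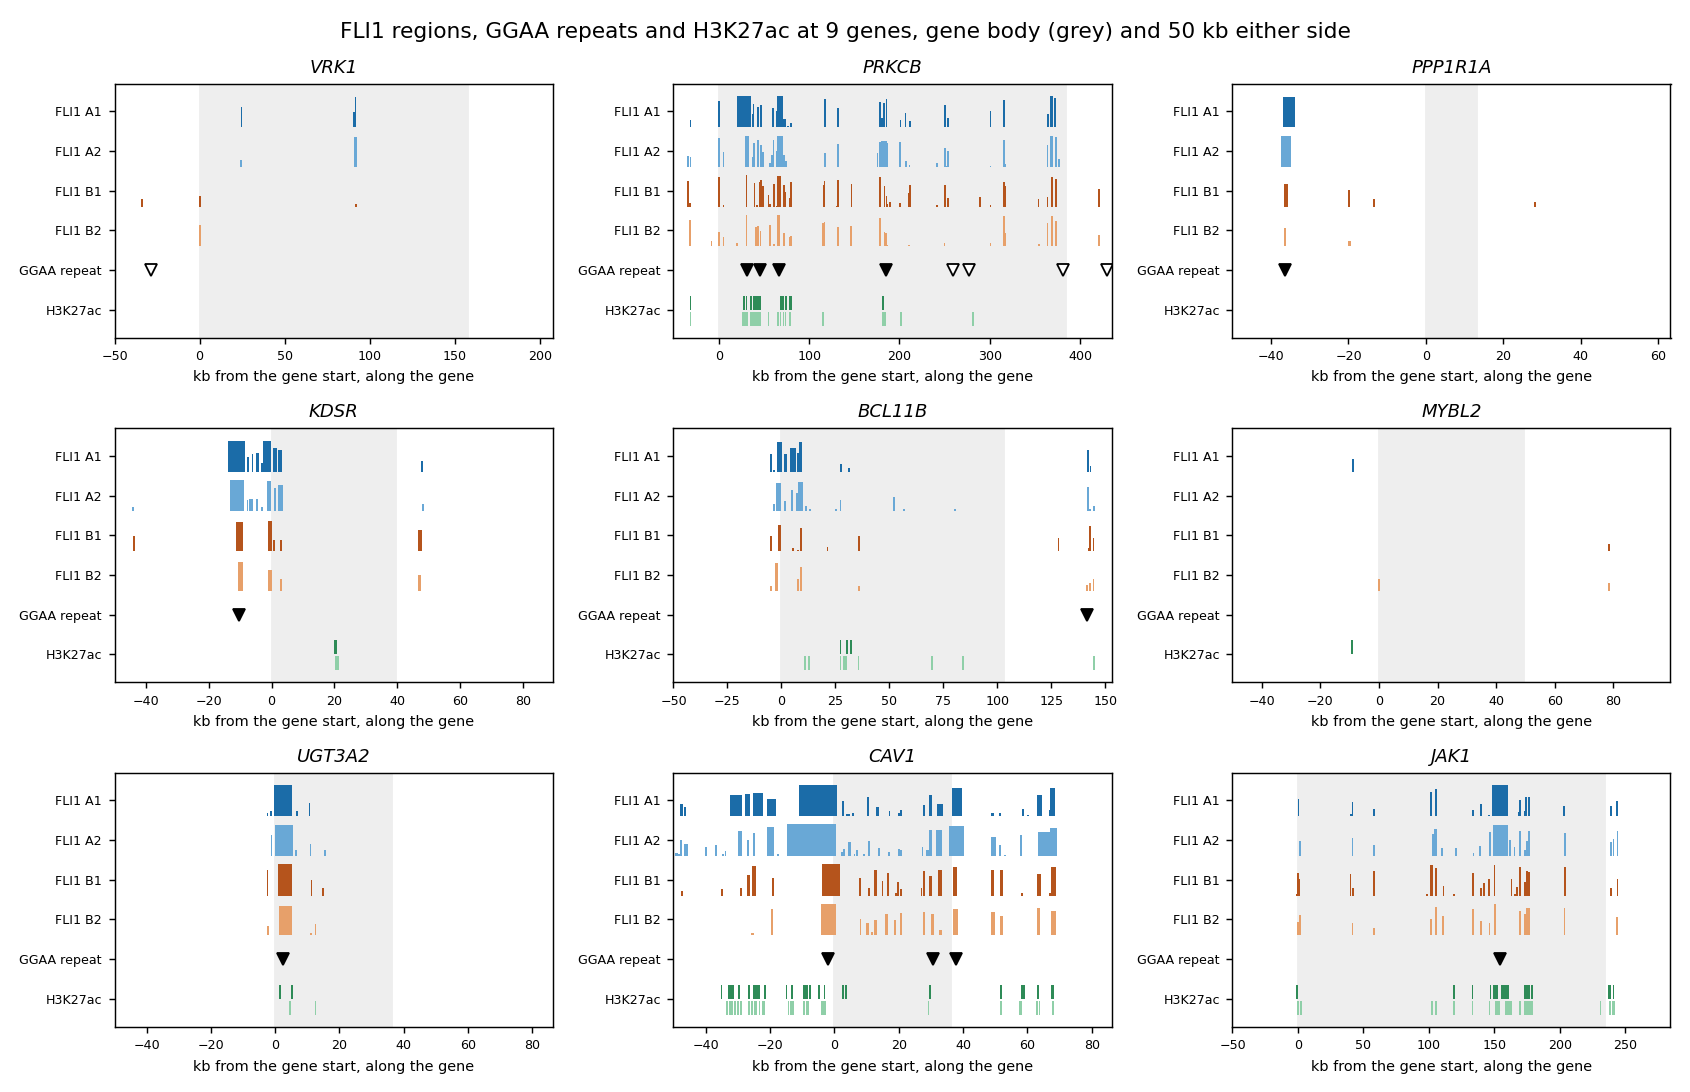
Peaks at the 9 genes, by distance in kb from the start of the gene record along the gene; the gene body is grey. Bars in the 4 upper rows are the strongest peak of each FLI1 region in each library (A1, A2, B1 and B2 are set and replicate), with bar height in proportion to the percentile of fold in its list; triangles are GGAA repeats, filled where FLI1 was at them in all 4 libraries; the H3K27ac row shows replicate 1 above replicate 2. FLI1 regions are most numerous at PRKCB, CAV1 and JAK1, of which PRKCB and JAK1 are long genes, and absent from the body of PPP1R1A.

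The strength of a region is given below as the fold over IgG that the authors' peak caller assigned to it, and as the percentile of that fold within its own list, because fold depends on the depth of each library. A region in all 4 libraries with a mean percentile of at least 95 was found within 10 kb at 4 of the 9 genes (PRKCB, UGT3A2, CAV1 and JAK1), against 6.74% of all genes. At 200 kb, VRK1 was the fifth, against 27.7% of all genes. A longer gene has a wider window, and the shares of all genes given here and below were not matched for length. PRKCB is 384.6 kb long and JAK1 234.5 kb, against 36.3 kb for UGT3A2 and 36.2 kb for CAV1.

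Of the kinase genes, PRKCB encodes protein kinase C beta, JAK1 the kinase that couples cytokine receptors to STAT factors, and VRK1 a nuclear kinase that phosphorylates chromatin and nuclear envelope proteins. The strongest region of PRKCB was intronic, at chr16:23856145-23872090, with folds of 52.8 and 73.8 (set A) and 52.0 and 29.2 (set B). Its percentiles were 98.4, 99.0, 99.4 and 97.4 (mean 98.5 ± 0.885 SD, n = 4 libraries), and the sets overlapped. A neighbouring intronic region at chr16:23899968-23907327 had folds of 111.1 and 78.4 (set A) and 28.9 and 35.8 (set B). These regions held runs of 13 and 12 units. Another strong intronic region, chr16:24202010-24206639, had folds of 67.1, 78.4, 22.2 and 24.4 with no repeat at its summits, so strong FLI1 regions of PRKCB were not all at repeats. Near the first start of PRKCB, FLI1 was weaker, with folds of 12.8 and 18.0 (set A) and 22.8 and 7.54 (set B).

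The strongest region of JAK1 lay in an intron at chr1:64906698-64919794 and spanned 13.1 kb. Its folds were 57.8 and 77.0 (set A) and 29.1 and 36.9 (set B), at percentiles 98.6, 99.1, 96.2 and 98.7. The 11-unit repeat shown above lies within it, 240 bp or less from the nearest summit in each library, and 52.6 kb from the nearest coding start of the gene. In set B the strongest peak of the region was another one, and the peaks at the repeat itself had folds of 57.8 and 77.0 (set A) and 28.7 and 17.7 (set B), with a percentile of 89.9 in set B replicate 2. JAK1 also had FLI1 at a start within the gene record in every library, at chr1:64964949-64967121, with folds of 10.9 and 8.55 (set A) and 26.3 and 8.23 (set B). Next to the first start, chr1:65066499-65067573 had folds of 6.32 in set A replicate 2 and 8.47 and 9.94 in set B, and was not detected in set A replicate 1. That library had 2 other FLI1 peaks within 1 kb of the first start.

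VRK1 differed from the other kinase genes. Within 10 kb it had 4 FLI1 regions, none in all 4 libraries. The strongest, in an intron at chr14:96887989-96889627, had folds of 31.6 and 27.5 in set A, 4.87 in set B replicate 1, and was not detected in set B replicate 2. The start of VRK1 showed the reverse, with folds of 6.74 and 10.1 in set B and no region in set A. Beyond the end of the gene, 269 kb from its start, chr14:97063749-97069163 had folds of 191, 184, 47.3 and 45.6. This was the strongest region near any of the 9 genes by mean percentile (99.6 over the 4 libraries), it held the 18-unit repeat, and VRK1 had the nearest protein-coding start.

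PPP1R1A encodes an inhibitor of protein phosphatase 1. It had no FLI1 region within 10 kb in any library. The nearest region in all 4 libraries, at chr12:54622535-54626057, was 36.0 kb upstream of its start and contained a 14-unit repeat, and the coding start closest to that repeat was that of LACRT, 8.29 kb away. Folds there were 31.5 and 42.4 (set A) and 11.004 and 8.85 (set B). The percentiles were 95.8 and 97.6 in set A against 69.8 and 57.9 in set B, so the region ranked lower in both libraries of set B. The lowest value of set A exceeded the highest of set B by 26.0 percentile points, and the replicates differed by 1.76 in set A and 11.9 in set B. With 2 libraries per set an exact permutation test cannot pass a threshold of 0.05, and no test was made.

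KDSR and UGT3A2 encode enzymes, a reductase of sphingolipid synthesis and a UDP-glycosyltransferase. KDSR had its strongest region 9.90 kb upstream of its start, at chr18:63375667-63381379, with folds of 41.2 and 62.3 (set A) and 21.9 and 18.5 (set B). The 16-unit repeat lay within it, 10.3 kb from the nearest KDSR start. The percentiles of set A (97.4 and 98.7) lay above those of set B (92.4 and 91.1) by at least 4.93 points, more than the replicate gaps of 1.33 and 1.39. A region at the start itself, chr18:63366990-63369981, had folds of 39.2, 38.8, 29.2 and 9.76 and no repeat.

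UGT3A2 had its strongest region at chr5:36065702-36071615, with folds of 76.4 and 46.8 (set A) and 37.6 and 20.9 (set B). Its percentiles were 99.2, 97.9, 98.2 and 93.2, and the sets overlapped. The 11-unit repeat in it lies 1.66 kb upstream of the nearest coding start, within the gene record. In all 4 libraries the region covered the repeat, but the summits differed by set. They lay 223 and 209 bp from the repeat in set A and 1835 and 1847 bp from it in set B. The set B summits were 4.25 and 4.27 kb into the gene record, next to the coding starts at positions 36066882 and 36067284.

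CAV1 encodes caveolin-1, the scaffold protein of plasma membrane caveolae. Its strongest region, chr7:116507759-116526788, ran across the start of the gene and was the strongest of any of the 9 genes within 10 kb. The folds were 78.1 and 128.1 (set A) and 48.4 and 37.9 (set B), at percentiles 99.2, 99.7, 99.2 and 98.9 (mean 99.2 ± 0.343 SD, n = 4 libraries). The 16-unit repeat is 1.93 kb upstream of the start, and the summits were 347, 349, 199 and 181 bp from it. A 6-unit repeat in an intron and a 12-unit repeat just beyond the end of CAV1 also had FLI1 at them in every library, so each of the 3 repeats within 10 kb of this gene did. The region over the 12-unit repeat, chr7:116559371-116565433, had folds of 17.6, 25.9, 18.4 and 13.7.

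BCL11B and MYBL2 encode nuclear factors, a zinc-finger transcription factor of lymphoid and neural development and a MYB-family activator of cell cycle genes. The strongest BCL11B region lay at its start, chr14:99271947-99275172, with folds of 24.5 and 17.9 (set A) and 14.9 and 17.1 (set B). Its percentiles were 93.8 and 90.1 (set A) and 82.9 and 89.1 (set B), and the lowest of set A was 1.07 points above the highest of set B, less than either replicate gap (3.70 and 6.15). No repeat lay at its summits. Around the strongest summit the 151 bases of chr14:99272395-99272545 (plus strand, upstream of the BCL11B start) hold no run of GGAA or TTCC units:
BCL11B start summit: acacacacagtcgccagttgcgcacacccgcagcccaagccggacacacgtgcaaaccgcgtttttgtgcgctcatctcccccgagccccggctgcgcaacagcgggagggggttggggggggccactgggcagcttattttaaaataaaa
An 11-unit repeat beyond the other end of BCL11B, 140.9 kb from the nearest start, had summits within 179, 162, 241 and 162 bp in the 4 libraries, but a FLI1 region over the repeat itself in 1 of them. MYBL2 had the least FLI1 of the genes with any region. Set A replicate 1 had a region 8.93 kb upstream of its start, with a fold of 6.11, and set B replicate 2 had one at the start, with a fold of 7.08. The other 2 libraries had none within 10 kb.

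**Figure D2:**
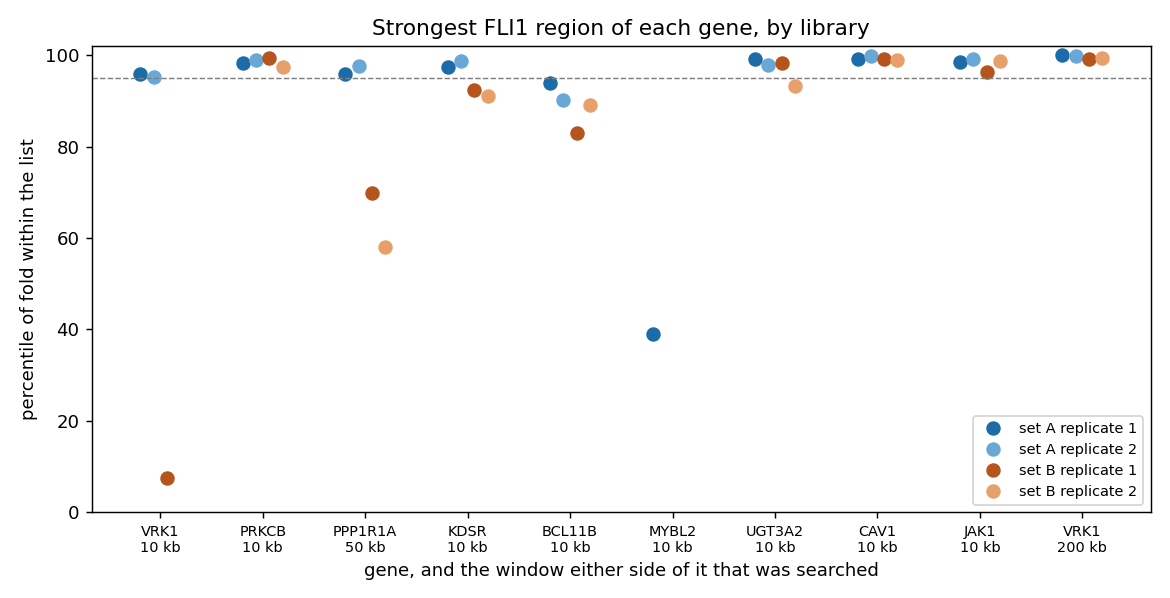
Percentile of fold within its own list (vertical axis) for the strongest FLI1 region of each gene in each of the 4 libraries, with the window searched given under each gene; the dashed line is percentile 95. Points of CAV1, PRKCB and JAK1 all lie above 95, those of PPP1R1A fall from 95.8 and 97.6 in set A to 69.8 and 57.9 in set B, and VRK1 appears at 10 kb and at 200 kb.

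FLI1 lay within 1 kb of a protein-coding start in all 4 libraries at 6 of the 9 genes, against 38.3% of all genes: PRKCB, KDSR, BCL11B, UGT3A2, CAV1 and JAK1. When the single start of the gene record was used, UGT3A2 dropped out and 5 remained. VRK1 and MYBL2 had a start region in 2 and 1 libraries, and PPP1R1A in none. For comparison, a list of 18 other activated genes had 12 with FLI1 at a start in all 4 libraries, and a list of 10 genes repressed by the fusion had 2. The sequences CCGGAA and TTCCGG, a single ETS core on either strand, were found within 250 bp of the strongest summit of at least 1 library in 6 of the 50 regions of the 9 genes that were in all 4 libraries. The share over all such FLI1 regions was 34.7%. In the RefSeq promoters of hg38 (250 bases before to 50 after a start), this core was present in 17.2% of 35116 promoters, and of the 7 genes with an entry JAK1 alone held it. Such a match is a description of the letters, not a binding site.

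GGAA repeats with FLI1 were found near most of the genes. A repeat of at least 4 consecutive GGAA units (TTCC on the other strand) with FLI1 at it in all 4 libraries was found within 10 kb of 4 of the 9 genes (PRKCB, UGT3A2, CAV1 and JAK1), against 2.83% of all genes. At 50 kb it was found for 7 of the 9, adding KDSR, PPP1R1A and BCL11B, against 5.97%. At 200 kb VRK1 made it 8 of the 9, against 16.5%, and MYBL2 was the exception. A 15-unit repeat 195.6 kb from the start of MYBL2 had FLI1 at it in 3 libraries. Of the 18 other activated genes, 12 had such a repeat at 50 kb, and of the 10 repressed genes 1 did. The shares are over genes of all lengths, and the repeats of PRKCB and JAK1 lie in introns of long genes.

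Longer repeats had FLI1 more often. The 200 kb windows of the 9 genes held 34 repeats, of which 15 had FLI1 at them in all 4 libraries, 4 in some and 15 in none. Among the 20 with a run of at least 8 units, 13 had FLI1 in all 4 libraries and 3 in none. Among the 14 shorter ones, 2 had FLI1 in all 4 and 12 in none, and both of the 2 were at or near CAV1. Over the 12171 repeats of the genome, the share with FLI1 in all 4 libraries was 26.3% at 8 units or more and 2.51% below. PRKCB showed both outcomes within 1 gene. Within 10 kb it had 7 repeats, of which those with 13, 8, 12 and 15 units had FLI1 in all 4 libraries, and those with 11, 4 and 4 units had none.

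A stricter definition asked for at least 4 consecutive units inside the 250 bp either side of a FLI1 summit in each of the 4 libraries. Units of a run beyond that window were not counted. PRKCB and CAV1 qualified, 2 of the 9 genes, against 1.48% of all genes. The count was 2 at 50 kb (3.19% of all genes) and 3 at 200 kb (9.02%), where VRK1 joined. By region, 11 of the 157 had a repeat at a summit of at least 1 library, against 4.03% of all FLI1 regions, and 3 of the 50 in all 4 libraries had one at a summit of each, against 3.65%. The call for CAV1 rested on its 6-unit intronic repeat and was lost without set B replicate 2, which left 1 gene. The repeats of UGT3A2 and KDSR were covered by FLI1 regions of every library but lay over 250 bp from the summits of 2 libraries each. At the JAK1 repeat the run reached beyond the 250 bp window, and only 3 and 2 units were left inside it in set A replicates 1 and 2.

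**Figure D3:**
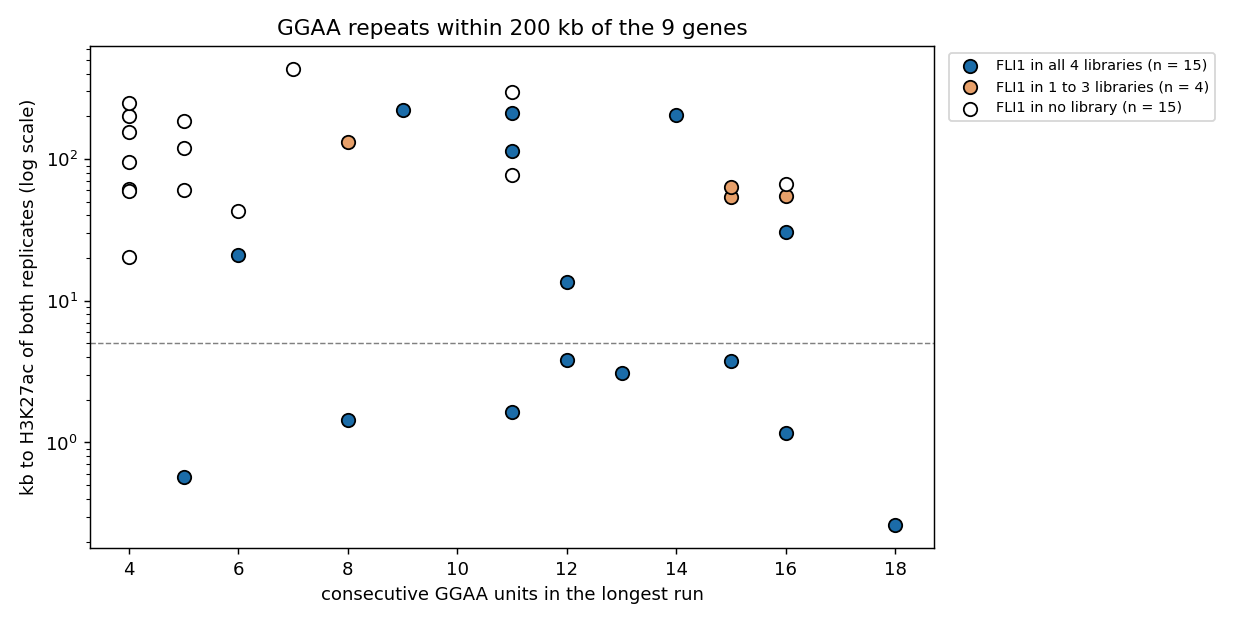
Each point is 1 of the 34 GGAA repeats within 200 kb of the 9 genes, by the number of consecutive units in its longest run (horizontal axis) and the distance in kb to H3K27ac of both replicates (vertical axis, log scale); colour gives the number of libraries with FLI1 at the repeat and the dashed line is 5 kb. The 8 points under the line all had FLI1 in all 4 libraries, and the repeats without FLI1 lie at 20.5 kb or more.

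H3K27ac bases shared by both replicates were found within 10 kb of 5 of the 9 genes (PRKCB, KDSR, BCL11B, CAV1 and JAK1), against 23.8% of all genes. At 50 kb it was still 5, against 38.0%, and at 200 kb 8, against 63.4%. JAK1 had the widest cover in kb, with 13.4 and 15.8 kb in replicates 1 and 2 and 8.53 kb in both, at percentile 99.95 among all genes. Presence in the window and cover in kb can both grow with gene length, and JAK1 is 234.5 kb long against 36.2 kb for CAV1. By share of the window the 2 genes were alike, at 5.27 and 6.19% for JAK1 and 5.54 and 6.04% for CAV1. PRKCB had 6.81 and 10.7 kb, with 3.02 kb in both, and CAV1 had 3.11 and 3.39 kb, with 1.14 kb in both. BCL11B (1.22 and 3.41 kb) and KDSR (0.953 and 1.04 kb) shared 0.645 and 0.604 kb. The replicates shared only part of their cover, 8.53 of the 20.7 kb found in either at JAK1 and 3.02 of 14.5 kb at PRKCB.

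VRK1 and PPP1R1A had no H3K27ac in either replicate within 10 kb, and MYBL2 had 0.343 kb in replicate 1 only. UGT3A2 had 2 peaks in each replicate with no shared base. A pair of them lay close together at its coding starts, at chr5:36066045-36066430 in replicate 1 and chr5:36066523-36066908 in replicate 2. Under the rule on both replicates UGT3A2 therefore counted as without H3K27ac, while its strongest FLI1 region overlapped the peaks of each replicate. At JAK1 a peak lay just upstream of the first start in both replicates, the replicate 1 peak at chr1:65067908-65068870 ranking at percentile 95.7 of its list.

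**Figure D4:**
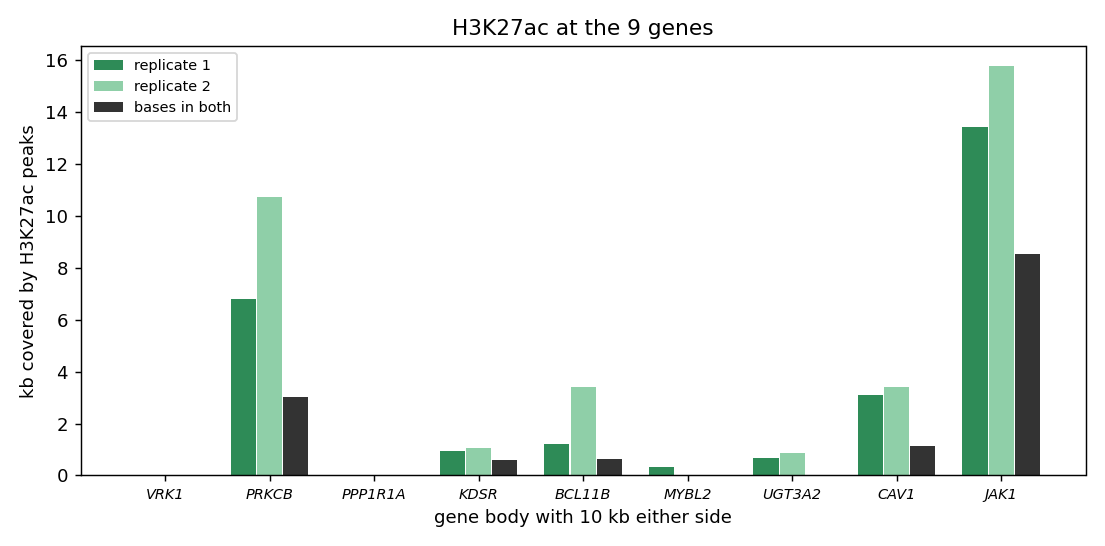
Length in kb (vertical axis) under H3K27ac peaks within each of the 9 genes and 10 kb on both sides, for replicate 1, replicate 2 and the bases in both. JAK1 reaches 13.4 and 15.8 kb with 8.53 kb shared, and VRK1 and PPP1R1A are at 0.

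Pooled over the 9 genes, FLI1 regions had a lower median distance to H3K27ac than FLI1 regions in general. With H3K27ac of both replicates, the regions of UGT3A2, VRK1 and MYBL2 did not. The size of the gap also depends on the H3K27ac replicates. The median distance from the 157 regions to H3K27ac of both replicates was 17.8 kb, against 116.1 kb over all FLI1 regions and 85.8 kb over the 38454 within 10 kb of any protein-coding gene. With H3K27ac of either replicate the medians were 2.77, 25.3 and 14.7 kb. With peaks of −log10 q of at least 5 they rose to 57.4, 730.3 and 635.1 kb, over 127, 45789 and 32486 regions. Regions of 1 gene share that gene and are not replicates, and PRKCB, JAK1 and CAV1 held 57, 35 and 24 of the 157. By gene, the median distance was 3.68 kb at JAK1, 11.1 at PRKCB, 15.0 at CAV1, 19.7 at BCL11B, 24.4 at KDSR, 207.9 at UGT3A2, 212.1 at VRK1 and 263.0 at MYBL2, and leaving out each gene in turn moved the median of the rest between 15.0 and 20.1 kb. Within 10 kb of H3K27ac lay 64 of the 157 regions (40.8%), against 19.1% of all FLI1 regions. Among FLI1 regions within 10 kb of any protein-coding gene the share was 22.9%. PRKCB supplied 28 of the 64, JAK1 24, CAV1 7 and BCL11B 5, and the other genes none. Direct overlap was less distinct, at 16 of 157 regions (10.2%). It was 6.77% over all FLI1 regions and 8.36% over those within 10 kb of any protein-coding gene. JAK1 supplied 10 of the 16, PRKCB 4, and BCL11B and CAV1 1 each, and without JAK1 the share was 4.92%.

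Repeats with FLI1 lay within 5 kb of H3K27ac more often than repeats without it. Of the 15 repeats near the 9 genes with FLI1 in all 4 libraries, 8 were within 5 kb of H3K27ac of both replicates: 4 at PRKCB, 2 at or near CAV1, 1 at JAK1 and the 18-unit repeat beyond VRK1, 0.26 kb away. None of the 15 repeats without FLI1 was within 5 kb of it. With H3K27ac of either replicate the counts were 11 of the 15 with FLI1 and 2 of the 15 without, the latter a 4-unit repeat in PRKCB, 3.15 kb away, and a 5-unit repeat beyond its end, 4.22 kb away. Over the genome the shares were 16.3% of 1254 repeats with FLI1 in all 4 libraries and 1.03% of 9893 without, and 36.4% and 3.04% with H3K27ac of either replicate. The other 7 with FLI1 include those of PPP1R1A, at 205.5 kb, UGT3A2, at 212.1 kb, BCL11B, at 114.0 kb, and KDSR, at 30.6 kb. H3K27ac of either replicate lay 0.912 kb from the UGT3A2 repeat and 2.66 kb from that of BCL11B, but still 205.5 kb from that of PPP1R1A and 30.3 kb from that of KDSR.

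Marks of repression were found at some of the genes. H3K9me3 of both replicates lay within 10 kb of 4 of the 9 genes (VRK1, PRKCB, KDSR and JAK1), against 24.5% of all genes. At 50 kb it was 7 (43.1% of all genes) and at 200 kb all 9 (75.6%). Upstream of KDSR it formed blocks of 4.55 kb in replicate 1 (chr18:63372137-63376688) and 4.29 kb in replicate 2 (chr18:63372541-63376832), next to the 16-unit repeat, which lay 0.85 kb away. Of the 9 FLI1 regions of KDSR, 5 overlapped H3K9me3, whereas 1.12% of all FLI1 regions did. They include the region over the repeat and, by its upstream end only, the region at the start. H3K9me3 was not found within 1 kb of a KDSR start, and the nearest lay 2.07 kb upstream. The strongest start peaks of set B ended short of it, at positions 63368484 and 63368195. The only other FLI1 region within 10 kb of the 9 genes that overlapped H3K9me3 was that of JAK1 at chr1:65009878-65010542. JAK1 had the widest H3K9me3 cover in kb, with 16.4 and 11.2 kb in the 2 replicates. By share of the window KDSR had more, 9.09 and 9.89% against 6.43 and 4.41% at JAK1. The H3K9me3 stretch in both replicates nearest to the 11-unit JAK1 repeat was 83.9 kb from it. At JAK1, FLI1 regions with H3K9me3 and with H3K27ac occurred in the same gene, at separate places.

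H3K27me3 of both replicates lay within 10 kb of 1 of the 9 genes, PPP1R1A, against 17.0% of all genes. MYBL2 was the second at 50 kb (28.3% of all genes) and UGT3A2 the third at 200 kb (51.9%). It covered the start of PPP1R1A in both, at chr12:54586111-54591345 in replicate 1 and chr12:54586607-54590550 in replicate 2, with folds of 5.25 and 4.90. PPP1R1A was also the gene with no FLI1 region and no H3K27ac within 10 kb. None of the 157 FLI1 regions overlapped H3K27me3, against 0.550% of all FLI1 regions. H3K27ac was mapped in set A and the repressive marks in set B, so differences between sets and between marks cannot be told apart where they are set side by side.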

How the data were processed

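CUT&RUN peak lists of 10 antibody libraries from TC-32 cells were used. Per the submitters' processing notes, cutadapt 4.4, Bowtie2, Picard 2.17.11 and MACS2 2.1.1 were applied with build GRCh38 (hg38). Their settings are not given in the sources used here. Each deposited peak carries a fold (signal over the IgG library that shares its set and replicate number, a ratio) and a −log10 p-value and −log10 q-value, as the authors' caller wrote them. The lowest −log10 q was 2.00. Replicates were not pooled. Read totals, the spike-in and IgG reads were not analysed here, so depth is known only through the lists: 35210, 40590, 38221 and 29339 FLI1 regions (set A, then set B), 10219 and 17366 for H3K27ac, 36687 and 21770 for H3K9me3, and 21461 and 16667 for H3K27me3. No peak ran past the end of a chromosome of the hg38 reference used.

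Peaks on the 22 autosomes and X were used. Peaks of a list that overlap were joined, with the values of the peak of lowest p. The 4 FLI1 lists were joined into 55109 regions, overlap meant at least 1 shared base, and a mark counted where both replicates had it. Genes and starts came from GENCODE release 44. Repeats closer than 500 bp were counted as 1. The strongest region of a gene was that with the highest mean percentile of fold among regions found in the most libraries, and the text names all 9 genes. The genes, lists and measures were chosen with earlier results of these data known, so counts are set beside the share of all genes or regions and no test was made. Alternatives covered peak significance, window, start, repeat length and distance, use of either replicate, and leaving out each library. A run that touches the summit window, and a run inside the FLI1 region of each library, were added after seeing the data, as were the reading of FLI1 at a repeat by region or summit and the distance of repeats to H3K27ac of either replicate. Interval and repeat functions were tested on simulated data. Python 3.11.15 with numpy 2.4.6, pandas 2.3.3, pysam 0.24.0 and matplotlib 3.10.9 was used, and samtools 1.23.1 for indexing.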

Additional observations from a re-analysis of the deposited data

How the results depend on the processing

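The results are counts of genes and ranks from 2 to 4 libraries with no test, and 91 alternative values were computed. Of these, 74 stayed within 1.5 times the count or within 1 SD of the value, but some of the 74 could not have moved. Leaving 1 library out of a mean percentile cannot shift it by the SD over the same libraries. The H3K27ac gene counts do not use the FLI1 libraries that were left out. No paired analysis was possible because the results come from no test. Leaving out each library gave 6 to 7 genes with FLI1 in the remaining libraries (VRK1 joined without set B replicate 2), 6 at a start, 1 to 2 with a repeat at the summits, 5 to 7 with H3K27ac, and a median distance to H3K27ac of 3.60 to 19.1 kb, the lowest without H3K27ac replicate 1. The mean percentile of the strongest region ranged over 51.4 to 95.6 for VRK1, 98.2 to 98.9 for PRKCB, 74.5 to 87.8 for PPP1R1A, 93.6 to 96.2 for KDSR, 87.4 to 91.0 for BCL11B, 96.4 to 98.4 for UGT3A2, 99.1 to 99.4 for CAV1 and 97.8 to 98.8 for JAK1. By −log10 q, the MYBL2 region moved from percentile 39.1 to 32.3. With peaks of −log10 q of at least 5, genes with H3K27ac fell to 3 (PRKCB, CAV1 and JAK1) and the distance rose to 57.4 kb. The distance was 13.4 kb with 50 kb windows, 19.1 kb with 200 kb, and 2.77 kb with H3K27ac of either replicate. With either replicate, the repeats without FLI1 within 5 kb of H3K27ac went from 0 to 2. With 200 kb windows, 8 genes had H3K27ac of both replicates. Genes with a repeat at the summits numbered 1 with at least 6 units, 0 within 100 bp of the summit and 4 within 500 bp. A run inside the FLI1 region of each library gave 5. The cause of these shifts was not tested, beyond the wider or narrower reach of each setting. Without read totals, a missing weak peak cannot be told from low depth.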

Other observations

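The 200 kb windows reach genes beyond the 9. The CAV1 window takes in CAV2, its neighbour and partner in caveolae, where a 5-unit repeat in an intron of CAV2 had FLI1 at it in all 4 libraries and lay 0.572 kb from H3K27ac of both replicates. In the same window a 4-unit repeat in an intron of MET had no FLI1. In the PRKCB window, an intron of CACNG3 held a 9-unit repeat with FLI1 in all 4 libraries, 223.5 kb from H3K27ac. The strongest region within 200 kb of PPP1R1A lay in an intron of ITGA5, at chr12:54413080-54414267, overlapped H3K27ac and had a mean percentile of 92.8 with no repeat at its summits. Its percentiles in set A averaged 88.8 and in set B 96.7, with replicate gaps of 6.75 and 1.71, and both libraries of set B ranked it above both of set A, the reverse of the repeat region upstream of PPP1R1A.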
